A study of Mus musculus with 2 samples.

Results

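The genes described here are 10 components of the Notch pathway, out of 31053 genes listed in the deposited matrices. They are the receptors Notch1, Notch2 and Notch3, the ligands Jag1 and Dll4, the DNA-binding factor Rbpj, and the target genes Hes1, Hey1, Heyl and Nrarp. The genes were taken by name, and each was followed through 6 classes of cell barcodes in each of 2 libraries. A class was set by raw counts of unique molecular identifiers (UMIs, 1 per captured RNA molecule) of genes that are not among the 10. Hepatocyte barcodes had at least 0.5% of their UMIs from Alb. Duct barcodes had at least 2 UMIs of Krt19 and Krt7 together. Kupffer barcodes, for the resident macrophages of the liver, had at least 3 of Clec4f, Cd5l and Marco. Other macrophage barcodes had at least 3 of Gpnmb and Mmp12. Endothelial barcodes had at least 2 of Plvap and Gpihbp1, and T cell barcodes had at least 2 of Cd3e and Trbc2.

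The libraries come from a mouse model of hepatocellular carcinoma that lacks the Rb family of cell cycle inhibitors. Liver or lesion tissue was digested with enzymes, and cells positive for the YFP reporter of Cre recombination were sorted by flow cytometry. The early library was made from untreated mice with early lesions, as a pool of 3 mice whose barcodes cannot be traced to a mouse, and the macroscopic library from large visible lesions of untreated mice, whose number the labels used here leave unstated. The deleted alleles were floxed, so that Cre removes them. The Cre driver, strain and ages were likewise not given in the sources used here. Both groups share the deletion and the sort, and no wild-type or unsorted library was analysed here.

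There was 1 library per stage, so no difference below has a replicate check and no p-value is given. Intervals are exact 95% intervals that cover counting error only. Stage, animals and library cannot be told apart, and neither can sex, since Xist had 10149 UMIs in the early and 0 in the macroscopic library while the summed Y-linked genes had 0 and 752. The early library held 2620 barcodes with at least 1000 UMIs, with a median of 2946 UMIs, and the macroscopic library 241 with a median of 14223. The libraries shared 0 barcodes. In the early library the classes held 67 hepatocyte, 101 duct, 1932 Kupffer, 296 other macrophage, 25 endothelial and 76 T cell barcodes. In the macroscopic library they held 103 hepatocyte, 12 other macrophage, 31 endothelial and 20 T cell barcodes, with 1 duct and 4 Kupffer barcodes that were too few to compare. A barcode counted in each class whose gate it passed, which 123 early and 7 macroscopic barcodes did for more than 1 gate. Markers that were not used in the gates were at least 2-fold higher in their own class for 7 of 7 hepatocyte, 8 of 8 duct, 8 of 8 Kupffer, 7 of 8 other macrophage, 7 of 10 endothelial and 7 of 7 T cell markers in the early library. Among macroscopic barcodes the counts were 7 of 7, 6 of 8, 10 of 10 and 7 of 7 for the hepatocyte, other macrophage, endothelial and T cell classes. In that library other macrophages also had 5 of 8 Kupffer markers at least 2-fold higher, and hepatocytes 6 of 8 duct markers. Endothelial barcodes had 8 of 10 stellate, mural and fibroblast markers higher, and T cells 5 of 10 endothelial markers. Early duct barcodes had 2 of 7 hepatocyte markers higher, early hepatocytes 3 of 8 duct markers and Kupffer barcodes 3 of 10 endothelial markers.

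Notch receptors are membrane proteins that are cut when a ligand of the Jagged or Delta-like family on a neighbouring cell binds them. The freed intracellular part enters the nucleus, joins Rbpj on DNA and switches on targets such as the Hes and Hey repressors and Nrarp, which feeds back to restrain the pathway. In the liver, Jag1 and Notch2 are known for their role in bile duct formation, and Dll4 and Notch1 for their role in vessel growth.

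The genes differed in the cell class in which they were highest. Among macroscopic barcodes Notch1, Dll4, Hey1 and Nrarp were highest in the endothelial class, and Notch3 and Heyl were detected there in a few barcodes that also carried mural cell RNA. Among early barcodes Jag1 and Hes1 were highest in the duct class, Hey1 UMIs lay mostly in the Kupffer class, and Nrarp UMIs mostly in the hepatocyte class. Rbpj was detected in every class compared. Levels are given as CPM, the UMIs of a gene summed over a class per 1000000 UMIs of that class. The libraries count the 3' ends of RNAs, so a level was compared between classes and not between genes.

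**Figure D1:**
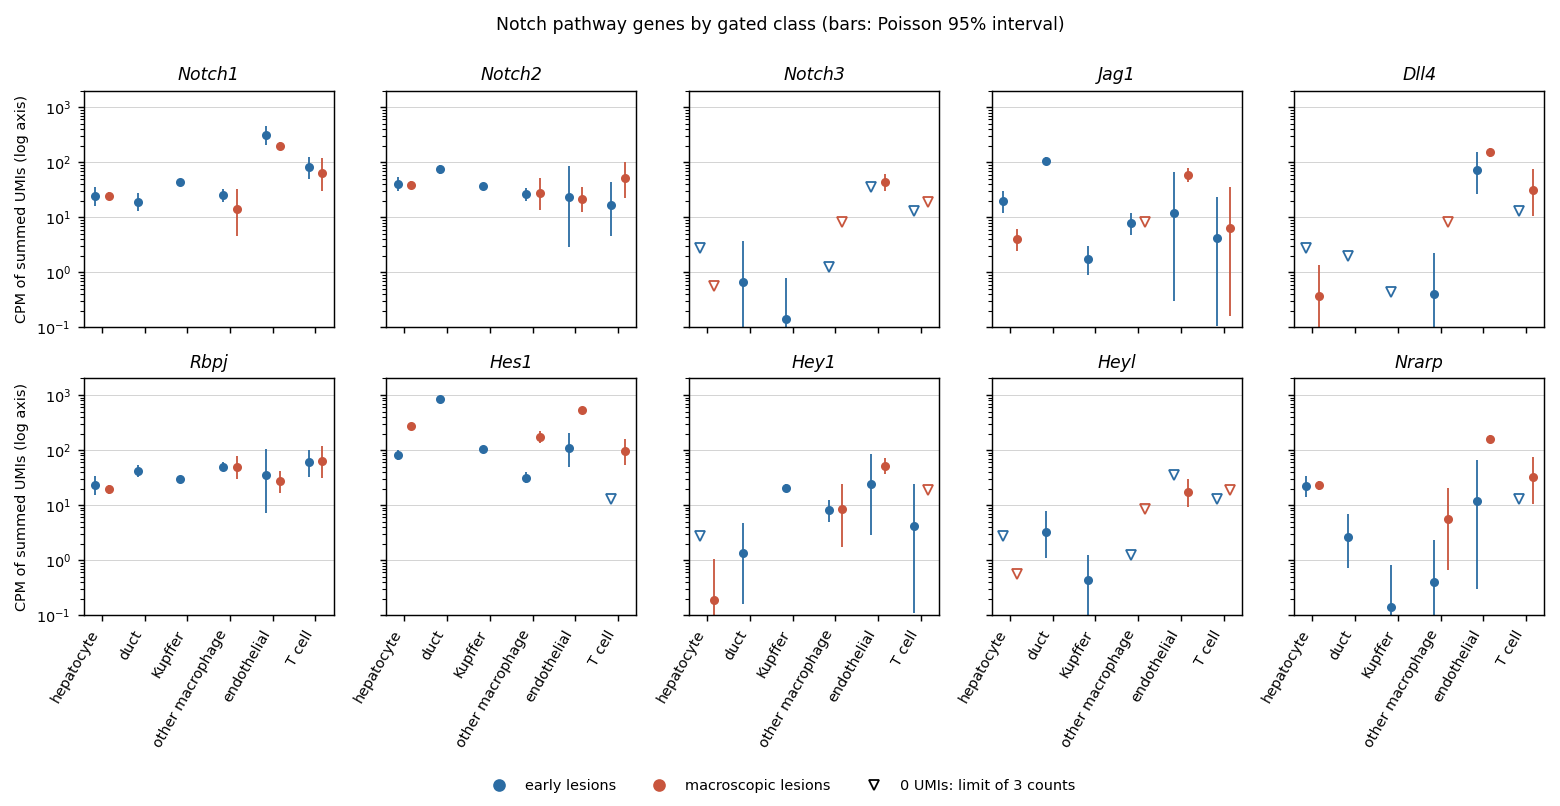
CPM of summed UMIs on a log axis for each of the 10 genes in the 6 classes, early library in blue and macroscopic library in red; bars are Poisson 95% intervals, and open triangles mark the limit that 3 counts would give where a class held 0 UMIs. Notch1 and Dll4 are highest in the endothelial class of both libraries, Jag1 and Hes1 in the early duct class, and the points of Rbpj lie close together; classes under 10 barcodes are left out.

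Notch1 (ENSMUSG00000026923, GRCm38 chromosome 2, 26457903 to 26516663, minus strand) encodes the receptor known from T cell commitment and vessel growth. In the library of early lesions, it stood at 309 CPM (interval 202 to 453, 26 UMIs) in the endothelial class, 81.1 in T cells (19 UMIs), 43.5 in the Kupffer class, 25.01 in other macrophages, 24.2 in hepatocytes and 19.3 in the duct class. The first 3 steps of this order were apart in counting error, and the last 3 classes were not told apart. In the macroscopic library it stood at 198 CPM (167 to 233, 147 UMIs) in the endothelial class, 64.1 in T cells, 24.5 in hepatocytes and 13.99 in other macrophages. Both libraries thus gave the endothelial class the highest level, 8.98-fold (5.80 to 13.4) above the other early barcodes and 8.84-fold (6.98 to 11.2) above the other macroscopic barcodes. The early endothelial class also carried Kupffer markers at 4899 CPM. Among the 17 early endothelial barcodes that passed no other gate, Notch1 stood at 475 CPM, 13.8-fold above the other barcodes.

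Notch2 (ENSMUSG00000027878, chromosome 3, 98013527 to 98150361, plus strand) encodes the receptor known from bile duct formation. It had its highest early level in the duct class, 74.4 CPM (61.2 to 89.5, 112 UMIs in 57 of 101 barcodes), followed by 40.9 CPM in hepatocytes and 37.3 in the Kupffer class. The duct class was 2.08-fold (1.67 to 2.58) above the other barcodes, and 1.39-fold when the class sums were scaled by the median of ratios over all measured genes. Among macroscopic barcodes Notch2 stood at 51.3 CPM in T cells (8 UMIs), 39.3 in hepatocytes, 28.0 in other macrophages and 21.5 in the endothelial class, and no neighbours in this order were told apart. Of the 16 endothelial UMIs, 13 came from 1 barcode with 176331 UMIs that also passed the hepatocyte gate. Without barcodes that passed a second gate the endothelial level was 5.50 CPM, and the 26 endothelial barcodes with under 3 UMIs of mural and fibroblast genes held 0 Notch2 UMIs.

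Notch3 (ENSMUSG00000038146, chromosome 17, 32120820 to 32166852, minus strand) encodes the receptor known from mural cells, the smooth muscle cells and pericytes around vessels. The early library held 3 Notch3 UMIs in all barcodes. Among macroscopic barcodes 33 of 35 UMIs lay in the endothelial class, at 44.4 CPM (30.6 to 62.4), and the hepatocyte class held 0, which allows up to 0.569 CPM. The 33 UMIs came from 3 barcodes, and 17 of them from 1. All 3 carried at least 3 UMIs of a list of 10 stellate, mural and fibroblast genes (Col1a1, Col1a2, Col3a1, Dcn, Lrat, Reln, Pdgfrb, Rgs5, Acta2, Des), which 5 of the 31 endothelial barcodes did. Notch3 stood at 127 CPM in those 5 barcodes and at 0 UMIs in the other 26. The gene model overlaps Gm17276 on the other strand.

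Jag1 (ENSMUSG00000027276, chromosome 2, 137081456 to 137116644, minus strand) encodes the ligand known from bile duct formation. In the early library it stood at 108 CPM in the duct class (91.6 to 126, 162 UMIs), 22.1-fold (16.1 to 30.9) above the other barcodes. The next class was hepatocytes at 19.5 CPM, where 17 of 21 UMIs came from the 10 barcodes that also passed the duct gate. Hepatocyte barcodes outside the duct gate had 4.21 CPM (1.15 to 10.8, 4 UMIs), against 135 CPM (78.4 to 215) in the 10 shared barcodes. The endothelial, other macrophage, T cell and Kupffer classes stood at 11.9, 7.79, 4.27 and 1.73 CPM, the first and the third from 1 UMI each. A Jag1 UMI was present in 65.3% of 101 duct barcodes (median 11635 UMIs) and in 0.414% of Kupffer barcodes (median 2557 UMIs). With each barcode thinned to 1000 UMIs these shares were 11.9% and 0.155%, so the order between the classes was the same at equal depth. In the macroscopic library, which has 1 duct barcode, Jag1 stood at 59.2 CPM in the endothelial class (43.0 to 79.5, 44 UMIs in 13 of 31 barcodes) and at 3.99 CPM in hepatocytes. In the endothelial class 37 of the 44 Jag1 UMIs lay in barcodes under 3 mural-list UMIs.

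Dll4 (ENSMUSG00000027314, chromosome 2, 119325784 to 119335962, plus strand) encodes the ligand known from arterial and sprouting endothelium. In the macroscopic endothelial class it stood at 151 CPM (124 to 181, 112 UMIs in 22 of 31 barcodes), 328-fold (109 to 1612) above the other barcodes, which held 3 UMIs. Hepatocytes held 2 of 5269788 UMIs. Other macrophages held 0, which allows up to 8.39 CPM. The T cell class had 5 UMIs, all in the 1 barcode that also passed the endothelial gate, and 0 in the 19 others. In the library of early lesions, the endothelial class held 6 of the 7 Dll4 UMIs, at 71.4 CPM (26.2 to 155), and the 1932 Kupffer barcodes held 0, which allows up to 0.432 CPM. A Dll4 UMI was present in 71.0% of macroscopic endothelial barcodes (median 15612 UMIs) and in 1.94% of hepatocyte barcodes (median 23459 UMIs), and in 9.68% and 0% after thinning to 1000 UMIs. Dll4 had no UMI in the 5 endothelial barcodes with mural RNA, so that Notch3 and Dll4 were together in 0 of 31 barcodes.

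Rbpj (ENSMUSG00000039191, chromosome 5, 53466152 to 53657362, plus strand) encodes the protein through which the cut receptors act on DNA, and represses the same genes in their absence. Its early levels ran from 23.2 CPM in hepatocytes to 59.8 in T cells, and its macroscopic levels from 19.6 CPM in hepatocytes to 64.1 in T cells. In neither library were neighbours in the order told apart, but some classes further apart in it did differ. Early other macrophages stood at 50.01 CPM (41.5 to 59.7) and the early Kupffer class at 29.7 (25.75 to 34.0), with intervals that did not overlap. Against the other barcodes of the library it was 2.17-fold (1.26 to 3.55) higher in macroscopic other macrophages and 2.71-fold (1.28 to 5.11) higher in macroscopic T cells, while in the other 8 classes compared the ratio lay within 2-fold. The gene model overlaps Gm10441 and Gm40304 on the other strand.

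The RefSeq promoter table (GRCm38.p6) held 7 of the 10 genes, without Hes1, Hey1 and Heyl. The core of the site that Rbpj binds, TGGGAA, was searched on both strands (TTCCCA on the other) from 250 bases before to 50 after each start. Only the 2 windows of Rbpj itself, which overlap, held it, with 2 matches in the first and 1 in the second, beside 25.6% of all 32851 promoter windows. The windows of Rbpj and of Notch1 lie inside the gene models given above, away from the first base of those models, which was not searched. The 250 bases before the start are shown for the first Rbpj window, as the window with matches, and for Dll4 and Nrarp, as genes that were each highest in the macroscopic endothelial class. Capitals mark TGGGAA or TTCCCA, and the first bases of the matches in Rbpj lie at -149 and -65 from the start.
Rbpj (chr5:53590096-53590345, plus strand): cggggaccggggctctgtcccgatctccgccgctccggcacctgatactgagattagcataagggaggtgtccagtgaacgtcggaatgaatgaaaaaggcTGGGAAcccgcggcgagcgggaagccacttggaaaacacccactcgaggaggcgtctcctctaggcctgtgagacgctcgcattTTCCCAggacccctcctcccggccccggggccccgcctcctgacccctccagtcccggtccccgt
Dll4 (chr2:119325534-119325783, plus strand): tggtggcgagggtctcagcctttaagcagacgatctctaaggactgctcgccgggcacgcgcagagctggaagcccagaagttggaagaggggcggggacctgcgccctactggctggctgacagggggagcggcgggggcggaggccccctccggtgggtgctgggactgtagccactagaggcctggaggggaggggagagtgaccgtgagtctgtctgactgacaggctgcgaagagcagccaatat
Nrarp (chr2:25180508-25180757, plus strand): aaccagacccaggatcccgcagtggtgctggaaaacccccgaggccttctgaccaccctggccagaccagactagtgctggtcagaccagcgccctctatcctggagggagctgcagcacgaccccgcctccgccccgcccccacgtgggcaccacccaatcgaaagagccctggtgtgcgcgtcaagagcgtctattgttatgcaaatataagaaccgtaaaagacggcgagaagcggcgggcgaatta
The absence of the letters from a window says nothing of binding elsewhere.

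Hes1 (ENSMUSG00000022528, chromosome 16, 30064384 to 30067796, plus strand) encodes a repressor that Notch switches on in many tissues, and that growth factor signals can also induce. Among early barcodes it stood at 842 CPM in the duct class (796 to 890, 1268 UMIs), 9.63-fold (8.85 to 10.5) above the other barcodes. The endothelial class stood at 107 CPM, the Kupffer class at 105, hepatocytes at 81.8 and other macrophages at 31.6, while 76 T cell barcodes held 0 UMIs, which allows up to 12.8 CPM. Within the duct class the UMIs were uneven. The lowest barcode had 0 per 10000 UMIs, the median 2.06 and the highest 67.8, and 10 of the 101 barcodes held 55.3% of the Hes1 UMIs. A Hes1 UMI was present in 24.9% of Kupffer barcodes (median 2557 UMIs) and in 0% of T cell barcodes (median 2678 UMIs), or 9.42% and 0% after thinning to 1000 UMIs. By the limit of 3 counts, 0 of 76 barcodes allows a share of barcodes with a Hes1 UMI of up to 3.95%, which is no limit on cells that express the gene.

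In the macroscopic library Hes1 stood at 535 CPM in the endothelial class (483 to 590, 397 UMIs), 277 in hepatocytes (1457 UMIs), 176 in other macrophages and 96.1 in T cells. Of the 15 T cell UMIs, 14 came from the barcode that also passed the endothelial gate, and the 19 others stood at 7.39 CPM. The most Hes1-rich hepatocyte barcode held 390 UMIs, and without it the class stood at 209 CPM. The endothelial class was 2.15-fold (1.92 to 2.40) above the other barcodes, and 1.74-fold when scaled by the median of ratios. Without the hepatocyte barcode that held 390 UMIs the ratio was 2.76 (2.46 to 3.10).

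Hey1 (ENSMUSG00000040289, chromosome 3, 8663359 to 8667256, minus strand) encodes a repressor of the same family, known as a Notch target in endothelium. In the early library 144 of its 154 UMIs lay in the Kupffer class, at 20.7 CPM (17.5 to 24.4), 10.9-fold (5.76 to 23.2) above the other barcodes. They were spread over 126 barcodes with at most 3 UMIs each, and the 67 hepatocyte barcodes held 0. The share of barcodes with a Hey1 UMI was 6.52% in the Kupffer class and 1.32% in T cells at like median depths of 2557 and 2678 UMIs, and 2.33% and 0% after thinning. The 25 early endothelial barcodes had 2 Hey1 UMIs, at 23.8 CPM (2.88 to 85.9), not told apart from the Kupffer level. Of 10 endothelial markers, the Kupffer class carried Cdh5 at 413 CPM, Stab2 at 122 and Pecam1 at 57.7, whereas the other 7 stood between 0.288 CPM for Emcn and 9.07 for Eng. Of the 126 Kupffer barcodes with Hey1, 97 had a Cdh5 UMI, 55 Stab2, 32 Pecam1 and 4 Eng. Kdr, Egfl7, Tek and Cldn5 were in 1 each, and Ptprb and Emcn in 0. Among all 1932 Kupffer barcodes, with or without Hey1, 1283 had a Cdh5 UMI, 630 Stab2, 344 Pecam1 and 48 Eng. The part of endothelial RNA in the Hey1 level was not tested.

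Among macroscopic barcodes 39 of 43 Hey1 UMIs lay in the endothelial class, at 52.5 CPM (37.3 to 71.8) in 11 of 31 barcodes, 85.6-fold (30.9 to 330) above the other barcodes. Hepatocytes held 1 UMI. All 11 barcodes with Hey1 also had Dll4.

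Heyl (ENSMUSG00000032744, chromosome 4, 123233556 to 123249875, plus strand) encodes the Hey relative known from mural cells. The early library held 8 Heyl UMIs, 5 of them in the duct class at 3.32 CPM (1.08 to 7.75). In the library of macroscopic lesions, all 13 UMIs lay in 4 endothelial barcodes at 17.5 CPM (9.32 to 29.9), and all 4 carried at least 3 mural-list UMIs. The 3 barcodes with Notch3 were among them.

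Nrarp (ENSMUSG00000078202, chromosome 2, 25180758 to 25183339, plus strand) encodes a small ankyrin repeat protein that limits Notch signalling. Among early barcodes 24 of its 31 UMIs lay in hepatocytes, at 22.3 CPM (14.3 to 33.2), 35.5-fold (14.8 to 97.4) above the other barcodes. The duct class had 4 UMIs at 2.66 CPM, the Kupffer class 1 of 6945139 UMIs, the endothelial class 1 UMI at 11.9 CPM (0.301 to 66.3), and T cells 0. Hepatocytes and the endothelial class were thus not told apart in the early library. In the macroscopic library hepatocytes had nearly the same level, 23.0 CPM (19.1 to 27.4, 121 UMIs), while the endothelial class stood at 160 CPM (133 to 192, 119 UMIs in 23 of 31 barcodes). T cells had 5 UMIs at 32.04 CPM, or 7.39 CPM without the barcode shared with the endothelial class. The endothelial class was 7.79-fold (6.04 to 10.1) above the other macroscopic barcodes. An Nrarp UMI was present in 23.9% of early hepatocyte barcodes (median 15463 UMIs) and in 0.0518% of Kupffer barcodes (median 2557 UMIs), or 2.99% and 0% after thinning. The gene model overlaps Gm38287 on the other strand.

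Taking all 10 genes together by class, the macroscopic endothelial class had the most members on the higher side. Of the 10, 9 were measured there (at least 10 CPM in 1 of the sums and 20 UMIs in both sums added together), and 7 of these were at least 2-fold higher than in the other barcodes, beside 28.8% of all measured genes. None was at least 2-fold lower, beside 15.4%. The median log2 ratio was 3.14 over the measured members and 0.31 over all measured genes. The 7 were Notch1, Notch3, Jag1, Dll4, Hes1, Hey1 and Nrarp. As given above, Hes1 was under 2-fold without 1 barcode of the endothelial class. This class carried RNA of the 10 mural and fibroblast genes at 3550 CPM and of the 7 hepatocyte markers at 4796 CPM, with the 10 endothelial markers at 5433 CPM. In the 26 barcodes under 3 mural-list UMIs, Notch1 stood at 272 CPM, Jag1 at 76.7, Dll4 at 232, Hes1 at 761, Hey1 at 80.8 and Nrarp at 236, each above its level in all 31. Notch2, Notch3 and Heyl had 0 UMIs there, which allows up to 6.22 CPM each. The barcodes left out include 1 that also passed the hepatocyte gate, with 176331 of the 742745 UMIs of the class and 9 mural-list UMIs. In endothelial barcodes that passed 1 gate, with no limit on mural RNA, levels were also higher than in all 31. Notch1 stood at 255 CPM, Jag1 at 78.8, Dll4 at 196, Hes1 at 676, Hey1 at 71.5 and Nrarp at 202. The 25 early endothelial barcodes held 84098 UMIs, and 7 members were measured. Of these 2 were at least 2-fold higher, Notch1 and, from 1 UMI, Nrarp, beside 20.9% of all measured genes, and 0 were lower, beside 9.34%.

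**Figure D2:**
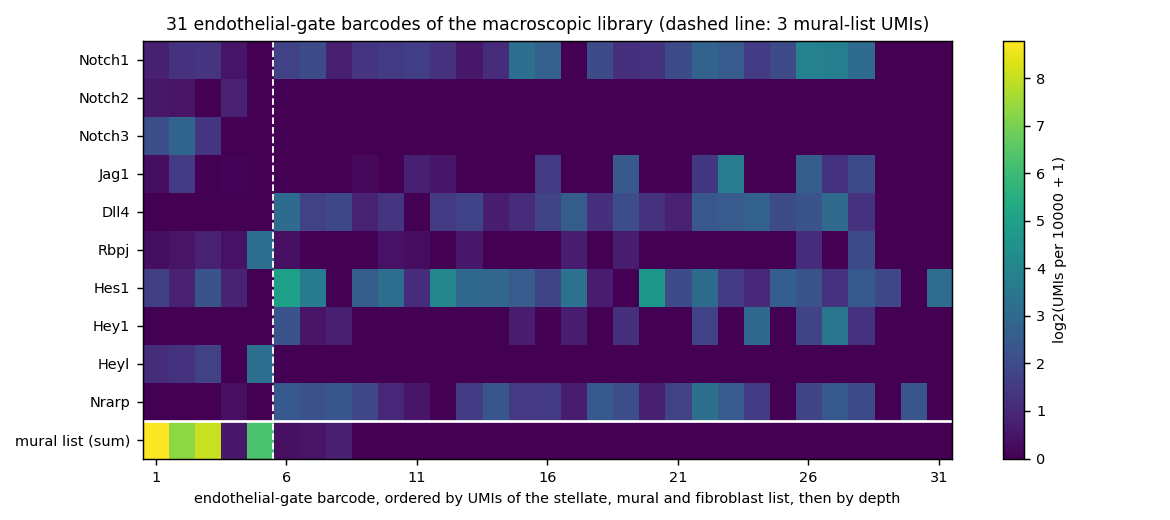
UMIs per 10000 on a log2(value + 1) scale in the 31 endothelial barcodes of the macroscopic library, 1 column each, ordered by UMIs of the stellate, mural and fibroblast list, for the 10 genes and for that list summed. The 5 barcodes left of the dashed line have at least 3 mural-list UMIs; Notch3 and Heyl appear only among them, and Dll4 and Hey1 only to the right.

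Within the 31 macroscopic endothelial barcodes, receptors, ligands and targets lay on the same barcodes. A UMI of a receptor, of a ligand and of a target were found together in 25 barcodes. Notch1 and Dll4 were together in 21 and Dll4 and Nrarp in 20. In the 101 early duct barcodes all these roles were together in 38, Notch2 and Jag1 in 41, and Jag1 and Hes1 in 50. In the 1932 Kupffer barcodes 461 had a receptor UMI, 571 a target UMI and 8 a ligand UMI, at a lower depth per barcode than in the other classes named. Deeper barcodes hold more UMIs of every gene, so these counts describe the barcodes and were not tested.

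In the early duct class 6 members were measured. Of these 3 were at least 2-fold higher (Jag1, Hes1, Notch2), beside 33.5% of all measured genes, and 2 were lower (Hey1, Notch1), beside 14.8%. The members' median log2 ratio, 0.59, was close to that of all measured genes, 0.55. Hey1 was 10.7-fold lower (2.91 to 89.2), from 2 UMIs, and Notch1 2.01-fold lower (1.38 to 3.04), or 1.97-fold in barcodes that passed 1 gate. The other side of this comparison holds the Kupffer barcodes outside the duct gate, from a class with 144 Hey1 and 302 Notch1 UMIs. By class, duct Hey1 was not told apart from T cells or hepatocytes, nor duct Notch1 from hepatocytes. The duct class carried the 8 duct markers at 7774 CPM and the 7 hepatocyte markers at 3557 CPM, the latter with at least 3 UMIs in 99 of 101 barcodes. The 10 stellate, mural and fibroblast genes stood at 478 CPM, with at least 3 UMIs in 53 barcodes. The part of this RNA in the levels of Jag1, Hes1 and Heyl was not tested. A list of 9 immediate-early and heat-shock genes (Fos, Jun, Junb, Atf3, Egr1, Ier2, Hspa1a, Hspa1b, Dnajb1), added after the values were seen, summed to 11650 CPM in the duct class and to between 668 and 4295 CPM in the other early classes. Its part in the Hes1 level was not tested.

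In the Kupffer class 6 members were measured and 1, Hey1, was at least 2-fold higher, beside 11.8% of all measured genes. Jag1 was 22.2-fold (12.4 to 43.8) and Hes1 2.69-fold (2.46 to 2.94) lower, beside 23.7% of all genes lower. In barcodes that passed 1 gate Jag1 was 58-fold lower, at 0.663 CPM. Both comparisons include the duct barcodes on the other side. The 2 macrophage classes were therefore also set against each other without the 96 barcodes they share. Hey1 stood at 21.2 CPM in Kupffer barcodes and 3.67 in other macrophages, 5.77-fold (2.58 to 16.01) apart. Hes1 stood at 111 and 20.8 CPM, 5.35-fold (3.79 to 7.79) apart, and Notch1 at 45.1 and 22.0 CPM, 2.05-fold (1.44 to 2.99) apart. These were 3 of 5 measured members, beside 21.8% of all measured genes at least 2-fold higher in Kupffer barcodes, and 0 were at least 2-fold lower, beside 7.28%. Rbpj lay the other way, at 28.7 against 56.3 CPM, 1.96-fold (1.51 to 2.54) apart.

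Kupffer barcodes were also divided by Cd207 and by Fabp7, genes that part of them carried. With at least 1 Cd207 UMI (814 barcodes) and without (1118), Hey1 stood at 20.6 and 20.8 CPM and Hes1 at 106 and 104. With and without Fabp7, Hey1 stood at 21.1 and 19.3 CPM, and Hes1 at 105 and 103. The intervals of these ratios held 1. Notch1 stood at 40.4 CPM with Fabp7 and 56.99 without, a ratio of 0.709 (0.543 to 0.934), and Notch2 at 34.7 and 48.5 CPM, a ratio of 0.715 (0.536 to 0.966). Deeper barcodes are more likely to hold a UMI of any gene, so such splits can also sort by depth. The part of depth in these ratios was not tested. The other macrophage class had 0 of 6 measured members at least 2-fold higher, beside 3.93% of all measured genes, and 2 lower, Hes1 (6.90-fold) and Jag1 (2.56-fold, or 1.96-fold when scaled by the median of ratios), beside 22.2%. In barcodes that passed 1 gate Hes1 was 10.9-fold lower, and Hey1 3.65-fold lower in place of 1.67-fold.

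**Figure D3:**
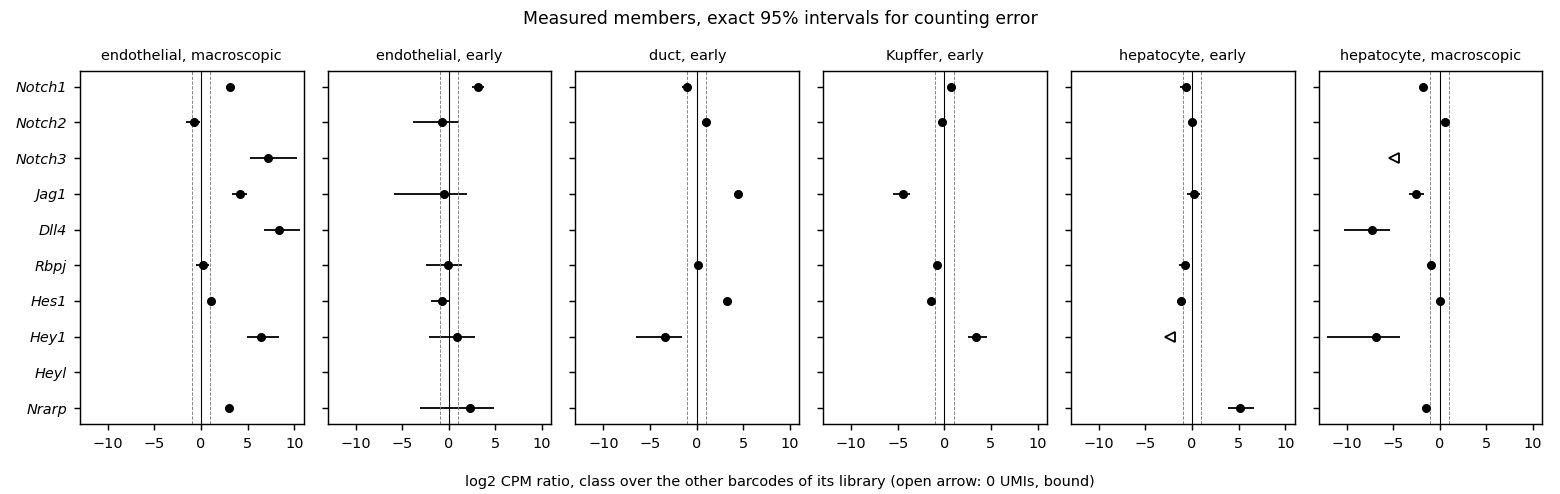
Log2 ratio of CPM, class over the other barcodes of its library, for the measured members in 6 comparisons; bars are exact 95% intervals for counting error, dashed lines mark 2-fold, and open arrows are bounds for a class with 0 UMIs. In the macroscopic endothelial panel 7 members lie beyond 2-fold on the higher side, in the early hepatocyte panel only Nrarp, and in the macroscopic hepatocyte panel none.

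In early hepatocytes 7 members were measured. Nrarp was at least 2-fold higher, beside 23.4% of all measured genes. Hes1 was 2.32-fold lower (1.88 to 2.91) and Hey1 at least 4.97-fold lower, beside 21.1%. In barcodes that passed 1 gate Hes1 was 4.43-fold lower, and Jag1 4.04-fold lower in place of 1.13-fold higher. In macroscopic hepatocytes 0 of 9 measured members were at least 2-fold higher, beside 18.4% of all measured genes, and 6 were lower, beside 23.8%. These were Notch1 (3.37-fold), Notch3 (at least 30.9-fold), Jag1 (5.67-fold), Dll4 (150-fold, from 2 UMIs), Hey1 (111-fold, from 1 UMI) and Nrarp (2.89-fold). In barcodes that passed 1 gate Rbpj, 1.93-fold lower with all barcodes, was 2.09-fold lower. The other side of this comparison holds the 31 endothelial barcodes, in which those genes were high.

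T cells had 6 measured members in each library. In the library of early lesions, Notch1 was 2.29-fold higher (1.37 to 3.62), 1 of 6 beside 15.7% of all measured genes. Hes1 was at least 14.4-fold lower, with Notch2, Jag1 and Hey1 also at least 2-fold lower from 4, 1 and 1 UMIs, beside 23.7%. The intervals of the Notch2, Jag1 and Hey1 ratios held 1. In the library of macroscopic lesions, Rbpj and Dll4 were at least 2-fold higher, beside 25.4%, and the Dll4 value rests on the barcode shared with the endothelial class. Hes1 was lower, 2.93-fold with that barcode and 38.1-fold in barcodes that passed 1 gate, beside 23% of all genes lower. In macroscopic other macrophages 1 of 6 measured members, Rbpj, was at least 2-fold higher, beside 14.6%, and 2 were lower, Notch1 and Nrarp, beside 28.2%.

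Between the stages, Hes1 was higher in macroscopic than in early hepatocytes. It stood at 81.8 CPM (65.6 to 101, 88 UMIs) in the 67 early and at 277 CPM (263 to 291, 1457 UMIs) in the 103 macroscopic hepatocyte barcodes, 3.38-fold (2.73 to 4.24) apart. Without the duct gate the values were 43.2 CPM in 57 and 275 CPM in 102 barcodes, 6.38-fold (4.68 to 8.92) apart, 1 of 5 measured members beside 9.58% of all measured genes. In these barcodes the 8 duct markers summed to 1601 CPM among early and 3069 CPM among macroscopic barcodes, where 95 of 102 barcodes had at least 3 of their UMIs. Their part in the Hes1 difference was not tested. Without the barcode that held 390 Hes1 UMIs the ratio was 4.80 (3.51 to 6.72). With the duct gate kept in, Hes1 was 1 of 6 measured members at least 2-fold higher, beside 8.45% of all measured genes. Jag1 was 4.90-fold (2.55 to 9.43) lower in the macroscopic hepatocytes, beside 18.9% of all genes, but 4.21 and 3.81 CPM without the duct gate, not told apart. Notch1 (24.2 and 24.5 CPM), Notch2 (40.9 and 39.3), Rbpj (23.2 and 19.6) and Nrarp (22.3 and 23.0) differed by less than their intervals, with ratios whose intervals lay between 0.539 and 1.67.

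Hes1 also had higher levels in the macroscopic library in other classes. Other macrophages stood at 31.6 CPM in 296 early and 176 CPM in 12 macroscopic barcodes, 5.58-fold (3.94 to 7.89) apart, and 1 macroscopic barcode held 31 of the 63 UMIs. Without it the macroscopic level was 99.5 CPM and the ratio 3.15 (2.02 to 4.82). In this class the 7 hepatocyte markers summed to 33.2 CPM among early and 4552 CPM among macroscopic barcodes, where 8 of 12 barcodes had at least 3 of their UMIs, and the 8 duct markers to 4.92 and 867 CPM. Their part in the Hes1 difference was not tested. Of 4 measured members there Hes1 was the 1 at least 2-fold higher, beside 12.2% of all genes, and 0 were lower, beside 17.8%. The endothelial class stood at 107 and 535 CPM, 5.0-fold (2.60 to 11) apart. Without the macroscopic endothelial barcode that held 104 Hes1 UMIs the ratio was 3.87 (2.01 to 8.54). The sum of the 9 immediate-early and heat-shock genes was also higher in the macroscopic library, at 4267 against 1772 CPM in hepatocytes, 3534 against 2234 in other macrophages, 7821 against 1237 in the endothelial class and 9503 against 4295 in T cells. Its part in the Hes1 difference was not tested.

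In the endothelial class 8 members were measured between stages, and 5 were at least 2-fold higher in the macroscopic library (Hes1, Nrarp, Jag1, Dll4, Hey1), beside 23.6% of all measured genes. The intervals left out 1 for Hes1 and for Nrarp, the latter 13.5-fold (2.37 to 537) from 1 early UMI, or 7.22-fold in barcodes that passed 1 gate. For Jag1 (4.98-fold, 0.849 to 201), Dll4 (2.11-fold, 0.941 to 5.88) and Hey1 (2.21-fold, 0.572 to 18.9) they did not, and scaling by the median of ratios left Dll4 and Hey1 under 2-fold, at 1.87 and 1.95. Dll4 was 1.17-fold in barcodes that passed 1 gate. Members at least 2-fold lower numbered 0, beside 12% of all genes. Notch1 stood at 309 and 198 CPM, a ratio of 0.640 (0.420 to 1.01). The endothelial marker list summed to 5945 and 5433 CPM, the Kupffer list to 4899 and 36.4 CPM, and the mural list to 23.8 and 3550 CPM, so the classes differ in the other RNA they carry, and the part of that in these ratios was not tested. In T cells 2 members were measured, Notch1 and Rbpj, with ratios of 0.790 (0.328 to 1.79) and 1.07 (0.426 to 2.60), and 0 were at least 2-fold higher or lower, beside 10.8% and 12.4%.

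Macroscopic hepatocyte barcodes differed among themselves in the nuclear RNA Malat1, which was under 0.05% of UMIs in 58 of 103 barcodes. In these 58 barcodes Notch1 stood at 1.43 CPM (2 UMIs) against 32.8 in the other 45, 22.9-fold lower (6.21 to 191). Notch2 stood at 4.29 against 51.9 CPM, 12.1-fold lower (5.46 to 33.3), and Rbpj at 6.44 against 24.3 CPM, 3.77-fold lower (1.90 to 8.50). Hes1 stood at 235 against 292 CPM, 1.24-fold lower (1.10 to 1.41). Of the Hes1 UMIs of the 45 barcodes, 390 came from 1 barcode, and without it the other 44 stood at 199 CPM, so that Hes1 was 1.18-fold higher (1.03 to 1.35) in the 58. Nrarp stood at 18.6 against 24.5 CPM, with an interval that holds 1. Of the 5 members measured, 3 were thus lower by at least 2-fold, beside 46.2% of all measured genes, and none higher, beside 1.66%. Over all measured genes the log2 ratio had a median of -0.81. The median depth was 17791 UMIs in the 58 and 107248 in the 45 barcodes. Against early hepatocytes outside the duct gate and with at least 0.05% Malat1, macroscopic hepatocytes chosen in the same way gave 6.63-fold (4.85 to 9.29) for Hes1, 1.47-fold (1.01 to 2.21) for Notch2, 1.27-fold (0.815 to 2.05) for Notch1, 1.08-fold (0.662 to 1.86) for Rbpj and 1.01-fold (0.632 to 1.66) for Nrarp. The Notch2 interval left out 1. Without the barcode that held 390 Hes1 UMIs the Hes1 ratio was 4.49 (3.28 to 6.32).

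**Figure D4:**
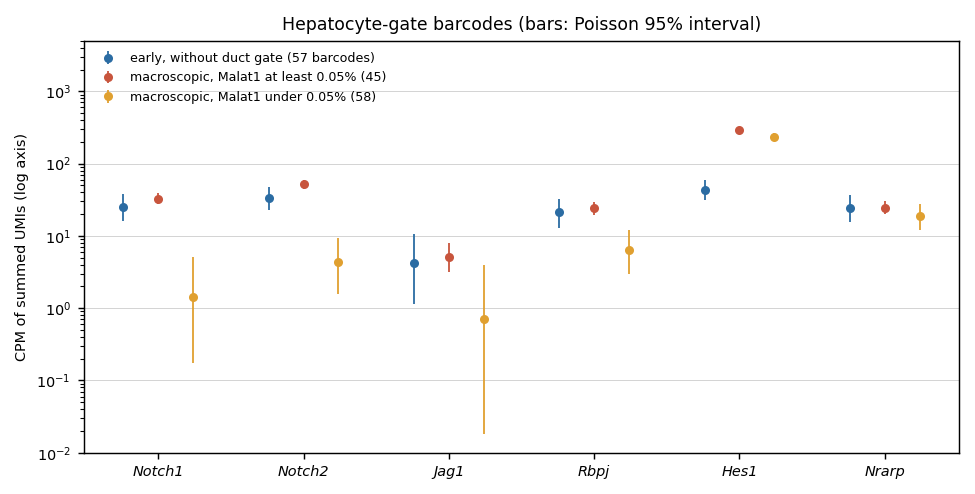
CPM of summed UMIs on a log axis for 6 of the genes in early hepatocyte barcodes outside the duct gate and in macroscopic hepatocyte barcodes with at least or under 0.05% of UMIs from Malat1; bars are Poisson 95% intervals. Hes1 is lowest in the early barcodes, Nrarp is near 20 CPM in all of them, and Notch1, Notch2 and Rbpj are lowest in the macroscopic barcodes with little Malat1.

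Other genes of the pathway were counted from a fixed list of 68. In the macroscopic endothelial class 49 were measured. Of these 22 were at least 2-fold higher, beside 28.8% of all measured genes, and 4 lower, beside 15.4%. The receptor Notch4 had 59 UMIs there and 0 elsewhere, at least 173-fold higher, and the ligand Jag2 was 84.8-fold higher (26.3 to 435). Mfng, which modifies receptors with sugar, was 15.6-fold higher (8.50 to 29.5). The co-activator Maml2 was 18.4-fold (8.31 to 43.8) and the receptor protease Adam10 4.23-fold (3.28 to 5.43) higher. Efnb2, an artery gene and Notch target, was 243-fold higher (116 to 613). In the early duct class 50 were measured, 10 higher, beside 33.5% of all measured genes, and 7 lower, beside 14.8%. The share higher was thus not above that of all genes. Among the 10 were Sox9, a bile duct transcription factor, 32.1-fold (28.1 to 36.9), and Efnb2, 5.74-fold (3.07 to 10.6). In the Kupffer class 49 were measured, 10 higher, beside 11.8% of all measured genes, and 5 lower, beside 23.7%. Lfng, a relative of Mfng, was 7.33-fold (5.79 to 9.40), Bend6, 11.7-fold (5.19 to 32.8), and Adam10 4.01-fold (3.51 to 4.59) higher there. These shares are the ones given above for the same classes.

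By a rule of likeness, the Pearson correlation of log2(CPM + 10) over the 9 class sums with at least 20 barcodes, the genes closest to Dll4 were Sox18 (r = 0.999), an endothelial transcription factor, and Tmem204 (0.996). Those closest to Notch1 were Chst15 (0.991) and Snrk (0.969), and those closest to Jag1 were Adamts9 (0.968) and Pdgfd (0.959). For Hey1 they were Hgf (0.976), a growth factor, and Il1a (0.956), a cytokine. The sums share libraries and depth, and some share barcodes, so these values describe the pattern and carry no test.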

How the data were processed

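The authors deposited unnormalized UMI counts, 1 matrix per library. The file headers name Cell Ranger 3.0.2 as their source, and the submitters' processing notes add Seurat 2.3.0 and the mm10 build. Coordinates are from GENCODE M21 on GRCm38. From the deposited counts, barcodes with at least 1000 UMIs were gated as described, and UMIs were summed per class and library into CPM with exact Poisson intervals. Shares carry exact Clopper-Pearson intervals in the underlying tables, and ratios of CPM an exact conditional binomial interval. A gene was measured with at least 10 CPM in 1 sum and 20 UMIs in both sums added together, and called at 2-fold. A count of 0 was replaced by 3 counts as a bound. Classes under 10 barcodes were not compared, a limit set after class sizes were seen.

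Thinning drew 1000 UMIs per barcode and left out no barcode. Doublets were not removed. Scrublet, run as an alternative, called 3 early and 0 macroscopic barcodes, under 0.5%, so the run without them can show little about doublets. The 10 genes, the gates and the lists were chosen with earlier results of these data known. The genes named were the 10 members, pathway genes past 2-fold, and for each member with at least 100 UMIs the 2 genes of highest likeness, of which some are printed. The steps were tested on simulated data. Python 3.11.15, NumPy 2.4.6, SciPy 1.17.1, pandas 2.3.3 and Scanpy 1.11.5 were used. Alternatives were barcodes that passed 1 gate, other gates and depth limits, scaling by the median of ratios, equal weight per barcode and thinning.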

Additional observations from a re-analysis of the deposited data

Results flagged for a closer look

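The ratio of Nrarp in hepatocytes to the other barcodes was 35.5 in the early and 0.346 in the macroscopic library. The difference between these ratios was not tested. The hepatocyte level was 22.3 and 23.0 CPM, whereas the other barcodes stood at 0.629 and 66.3 CPM.

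The 601 early barcodes under 1000 UMIs, which entered no class, also carried members. Notch1 stood at 78.2 CPM there, Notch2 at 34.5, Rbpj at 18.4, Hes1 at 161 and Hey1 at 20.7.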

How the results depend on the processing

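Every comparison rests on 1 library per stage, and the depth limits what a 0 can show in the early endothelial and T cell classes. No paired analysis was possible because the labels give no replicate numbers and there is 1 library per group. Under the alternatives, 855 of 950 CPM values, 781 of 859 log2 ratios, 60 of 61 counts of members and 823 of 950 percentages stayed within the interval of the reported value or, for counts of members, within 1.5 times of it. These totals include the run without Scrublet doublets, which left out only 3 barcodes and moved none of 120 CPM values, 88 log2 ratios and 120 percentages. They also include 88 log2 ratios with no minimum level, a setting that cannot change a ratio. The totals thus overstate how stable the values are. Thinning moved 75 of 120 percentages. With each barcode weighing the same, 2 members were at least 2-fold higher in early hepatocytes in place of 1. Under the same weighting 2 log2 ratios turned, Jag1 in early other macrophages from -1.36 to 0.27 and Dll4 in macroscopic T cells from 1.05 to -1.30, and the cause was not tested. Leaving out the barcode with the most Hes1 UMIs, an alternative added after the data were seen, put 7 of 9 Hes1 ratios outside their interval. The log2 ratio of macroscopic to early hepatocytes was then 1.35, and that of low-Malat1 to other hepatocytes 0.24. Ratios that an alternative left with 0 UMIs and an uninformative limit have no value. The subsets of endothelial barcodes by mural RNA and of hepatocyte barcodes by Malat1 were added after the data were seen.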

Other observations

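Of the 68 listed pathway genes outside the 10, 41 were measured between stages in hepatocytes. In the macroscopic library 4 were at least 2-fold higher, beside 8.45% of all measured genes, and 8 lower, beside 18.9%, which is near those shares. Myc, a growth transcription factor and Notch target, was 5.35-fold higher (2.77 to 11.9), and Ccnd1, a G1 cyclin, was 50.6-fold lower. In early T cells 51 of the listed genes were measured against the other barcodes. Of these 6 were at least 2-fold higher, beside 15.7% of all measured genes, and 9 lower, beside 23.7%. Dtx1, a Notch regulator, was 35.8-fold higher than in the other barcodes, and Il2ra, a receptor chain of activated T cells, 153-fold. In this class 1 UMI equals 4.27 CPM.

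Likeness by the same rule named Pfdn2 (r = 0.966) and Ccdc51 (0.920) for Notch2, Malt1 (0.968) and Sema4d (0.961) for Rbpj, Rnf121 (0.962) and Metap2 (0.962) for Hes1, and Plcb1 (0.978) and Tnfrsf10b (0.930) for Nrarp. Notch3 and Heyl, with 38 and 21 UMIs in both libraries together, were under the limit of 100.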
